A study of Mus musculus with 3 samples.

Results

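Antioxidant and glutathione enzymes are described here in cultured mouse neurons, as a set of 37 genes among the 47593 gene rows of the deposited data. The set was given by name: the superoxide dismutases, catalase, glutathione peroxidases, peroxiredoxins, the thioredoxin system, the enzymes that make and recycle glutathione, the NRF2 pathway with NQO1 and the heme oxygenases, and a group of glutathione S-transferases. All 37 names were found. The cells were wild-type (WT) primary neurons from mouse hippocampus. They were maintained in Neurobasal with 10% B27 and 1% GlutaMAX under 5% CO2 at 37 °C. For the experiment they received fresh neuronal medium holding B27 and penicillin-streptomycin, and the series design gives a duration of 24 h. B27 is a serum-free supplement whose standard form contains antioxidants; the labels do not say which form was used. The 3 libraries, replicates 1 to 3, form 1 group. The apoE-particle arm that the series design names was not analysed here, so no treatment comparison was made. The labels used here do not state mouse strain, embryonic age or days in culture. They also do not say whether replicates were separate cultures, so p-values measure only the spread between these libraries, which may be technical.

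Cells that use oxygen make superoxide and hydrogen peroxide. Superoxide dismutases turn superoxide into hydrogen peroxide, which catalase, glutathione peroxidases and peroxiredoxins then reduce. Glutathione and thioredoxin supply the electrons, and both are regenerated with NADPH. The transcription factor NRF2, held down by KEAP1, switches on many of these genes, and in brain its activity is known to be stronger in astrocytes than in neurons. Neurons depend in part on astrocytes for the precursors of glutathione.

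The values deposited were log2 expression values in which differences between libraries are shrunk, so reads were recovered from them as whole numbers. The libraries held 18780574, 18683965 and 18885652 recovered reads, and 3 reads, the limit for a gene without reads, corresponded to 0.159 to 0.161 reads per 1000000 (CPM). Such limits cover counting error only. Levels below are recovered reads or CPM, given as mean ± SD over n = 3 libraries, and ratios and orders of the members are per kilobase of annotated exon. The 6 neuronal markers were all detected, with a summed level of 4791 to 4872 CPM. The 8 astrocyte markers were also all detected, at 1898 to 1923 CPM, and all 4 progenitor markers, at 1017 to 1057 CPM. Of 7 microglial markers only C1qa reached 1 CPM in every library, no endothelial marker did, and Cldn5, Hbb-bs and Hbb-bt had no reads. Lower sums were measured for oligodendrocyte precursors (4 of 4 detected, 250 to 267 CPM), oligodendrocytes (3 of 4, 34.5 to 36.7), mural cells and fibroblasts (3 of 5, 35.3 to 39.8), and choroid plexus and ependyma (2 of 3, 17.6 to 19.2). RNA of marker genes of several cell types was thus present beside that of neuronal genes. In such bulk samples, fewer cells of a type and less RNA per cell cannot be told apart, and which cells made the antioxidant transcripts was not tested.

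Of the 37 listed genes, 30 lay at or above percentile 50 of detected protein-coding genes in level per kilobase. On the deposited scale, 37 of 37 reached 1 CPM in every library, against 59.0% of 21097 protein-coding genes and 29.4% of all rows. In recovered reads the number was 36, because Sod3 had 10 reads in replicate 1. Together the set held 0.298% ± 0.0026 of the summed expression in deposited values, with an SD of 0.0047 in recovered reads. Its median level was 18.4 CPM per kilobase, beside 6.65 for the 12456 detected protein-coding genes. The median member lay at percentile 77.8 of these genes. At or above percentile 75 were 23 members, at or above percentile 90 were 13, and below percentile 25 were 4, namely Gss, Gpx3, Nqo1 and Sod3. The plot of CPM by library shows these levels. The list was chosen with earlier results of these data known. Of 23 relatives outside it 11 were detected (10 in recovered reads), and the median of the 23 lay at percentile 2.20. The values above thus describe this list and not antioxidant genes in general.

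**Figure D1:**
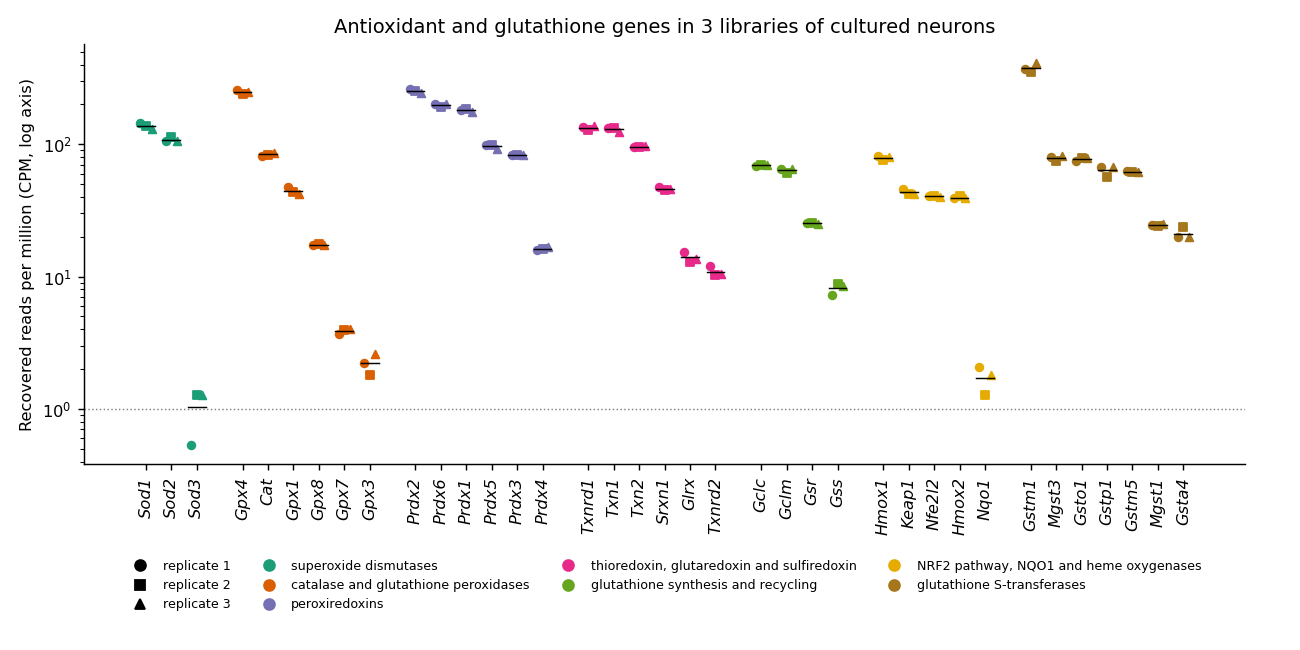
Recovered reads per 1000000 (CPM, log axis) of the 37 antioxidant and glutathione genes, grouped by role, with 1 symbol per library and a bar at the mean of 3 libraries; the dotted line is 1 CPM. The 3 libraries nearly coincide for most genes, and replicate 1 of Sod3 is the only value below 1 CPM.

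The highest members per kilobase were Gstm1 (257 ± 20.4 CPM per kilobase), Gpx4 (144 ± 4.08) and Txn1 (123 ± 5.03). The lowest were Gpx3 (1.22 ± 0.21), Nqo1 (1.11 ± 0.26) and Sod3 (0.28 ± 0.12). The first 8 genes of the order, from Gstm1 through Gpx4, Txn1, Prdx2, Mgst3, Prdx1 and Prdx3 to Gstm5, did not overlap with their neighbours in any library. Further down the order was less certain. Of 36 neighbouring positions 15 overlapped between libraries, among them Hmox1 with Prdx5, Cat with Gpx1 and Nqo1 with Gpx3.

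**Figure D2:**
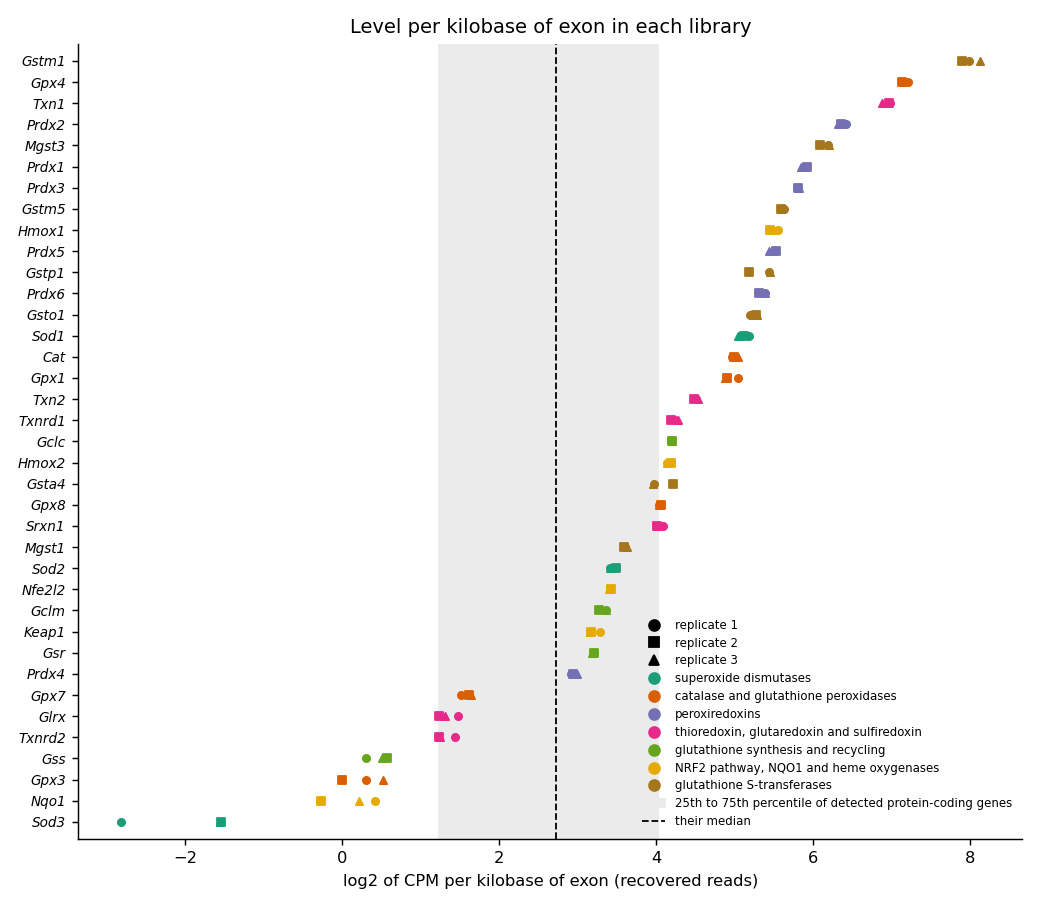
Level per kilobase of exon (log2 of CPM per kilobase, recovered reads) of each gene in each of 3 libraries, ordered by mean; colours mark roles, the shaded band spans the 25th to 75th percentile of detected protein-coding genes and the dashed line is their median. Most genes lie to the right of the median, and Gss, Gpx3, Nqo1 and Sod3 lie to the left of the band.

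A compartment was assigned to 16 members. The others were left out of this grouping, although some of them, such as Gstm1 and Glrx, are also known as cytosolic. The 7 genes assigned to the cytosol (Sod1, Gpx1, Prdx1, Prdx2, Prdx6, Txn1 and Txnrd1) had a median of 41.1 CPM per kilobase (range 18.9 to 123). The 4 mitochondrial genes, Sod2, Prdx3, Txn2 and Txnrd2, had a median of 16.8 (2.48 to 56.0). The 3 genes of the endoplasmic reticulum, Prdx4, Gpx7 and Gpx8, had a median of 7.74 (3.01 to 16.5). The secreted Sod3 and Gpx3 lay at 0.28 and 1.22. These are descriptions of small groups, and their medians depend on which genes were assigned. Among genes left out, Gstm1 lay above the range of the cytosol and Glrx below it. The 4 genes of glutathione synthesis and recycling, also left out, had a median of 9.64 (1.38 to 18.4).

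Related enzymes were compared in 16 gene pairs, each as a log2 difference of levels per kilobase within a library, taken from the deposited values. The gene named first was higher in 3 of 3 libraries in 11 pairs and lower in 3 of 3 in 5 pairs. Recovered reads gave 11 and 4, the exception being Gpx1 and Cat. An exact permutation test that flips the signs of the ratios, two-sided, gave p = 0.25 for each pair (adjusted 0.25), the smallest that 3 libraries allow, so no pair could pass a threshold of 0.05. The SD of the ratios in recovered reads was 0.04 to 0.43 log2 units. Ratios depend on exon length, which here is the union of all annotated exons. Values with another length, or with none, are given with the pairs they moved most. The SD beside each ratio is that of the deposited values, in which differences are shrunk, and the wider SD in recovered reads follows it.

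**Figure D3:**
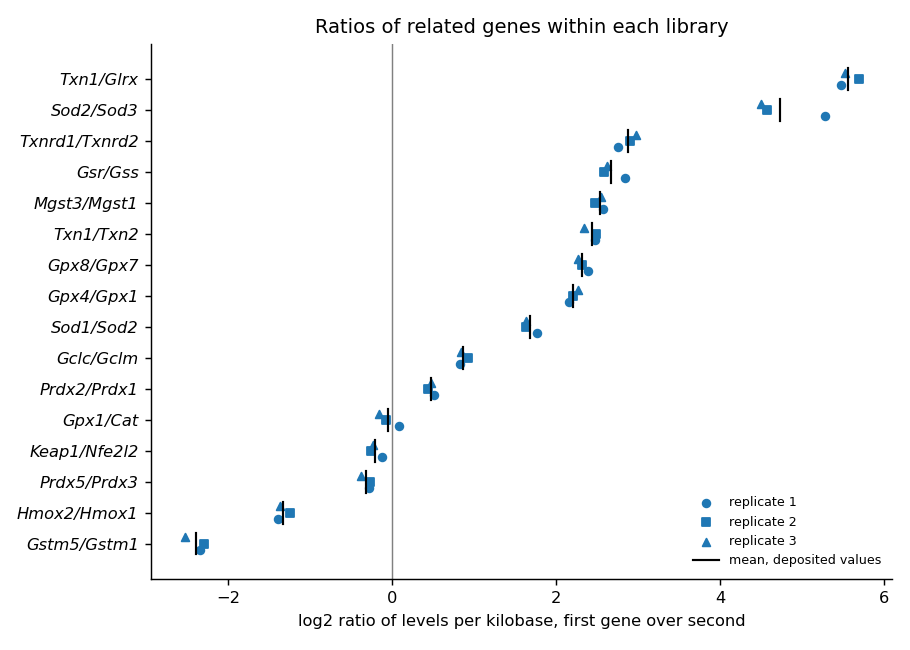
Log2 ratio of levels per kilobase, first gene over second, for 16 pairs; symbols are the 3 libraries in recovered reads and the black bar is the mean of the deposited values. Gpx1/Cat is the only pair whose libraries lie on both sides of 0.

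Of the superoxide dismutases, the cytosolic and the mitochondrial enzyme were well expressed and the secreted one was near the limit of detection. Sod1, the cytosolic copper-zinc enzyme, had 2710, 2583 and 2469 reads in replicates 1, 2 and 3. Sod2, the mitochondrial manganese enzyme, had 1999, 2105 and 2008. Sod3, the extracellular enzyme, had 10, 24 and 24 reads, so its lowest library lay 2.43-fold below its highest after scaling for depth. The libraries ranked differently for these genes: replicate 1 was the highest for Sod1 and the lowest for Sod3, and replicate 2 was the highest for Sod2. None of the 3 genes differed between libraries above counting error in the main test described below. Sod1 exceeded Sod2 by 1.68 ± 0.04 (0.08 in recovered reads) log2 units per kilobase, a 3.20-fold ratio, which fell to 0.90 with the longest transcript in place of all exons and to 0.34 without length scaling. Sod2 has 10008 bases of annotated exon and Sod1 3970. Sod2 exceeded Sod3 by 4.73 ± 0.02 (0.43 in recovered reads), with 5.27, 4.57 and 4.49 in the recovered reads of replicates 1, 2 and 3. This ratio was 6.15 without length scaling, 5.51 with the longest transcript and 2.81 with 5 CPM added in place of 0.5. Ccs, the chaperone that delivers copper to SOD1, was at 10.1 ± 1.18 CPM.

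Among the peroxide-removing enzymes of this kind, Gpx4, which reduces lipid peroxides in membranes and protects cells from ferroptosis, stood highest. It had 4801, 4518 and 4656 reads. Gpx1, the main cytosolic glutathione peroxidase, had 894, 808 and 800. Gpx4 exceeded Gpx1 by 2.21 ± 0.01 (0.06 in recovered reads) log2 units, a 4.63-fold ratio. Cat, which encodes the peroxisomal catalase, had 1541, 1555 and 1624 reads. The order of Gpx1 and Cat was not settled. Their ratio was −0.05 ± 0.04 in deposited values, below 0 in each library, but 0.08, −0.08 and −0.15 in the recovered reads of replicates 1, 2 and 3. It was 0.38 with the longest transcript and −0.91 without length scaling. Of the peroxidases of the endoplasmic reticulum, Gpx8 had 323, 327 and 325 reads and Gpx7 69, 74 and 76, a ratio of 2.32 ± 0.002 (0.06 in recovered reads). Gpx3, the plasma glutathione peroxidase, had 42, 34 and 49 reads. Their relatives Gpx2, Gpx5 and Gpx6, which act in gut epithelium, epididymis and olfactory tissue, had 2, 1 and 1 reads over all 3 libraries.

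GPX1, GPX3 and GPX4 and the thioredoxin reductases carry selenocysteine, and the genes that build selenoproteins were expressed. All 5 that were measured passed 1 CPM in every library, as did 59.0% of protein-coding genes. Their median was 4.18 CPM per kilobase, and their median percentile among detected protein-coding genes was 37.7. Sephs2, which makes the selenium donor, was at 25.2 ± 0.33 CPM, the elongation factor gene Eefsec at 21.3 ± 0.68 and Secisbp2, which reads the selenocysteine signal, at 19.3 ± 0.40. Selenop was not analysed here.

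Peroxiredoxins were the role group with the highest median, at 50.5 CPM per kilobase and percentile 93.3, and all 6 lay above the median of protein-coding genes. Prdx2, a cytosolic peroxiredoxin abundant in neurons, had 4929, 4688 and 4589 reads. Prdx1, its close cytosolic relative, had 3438, 3441 and 3301. Prdx2 exceeded Prdx1 by 0.48 ± 0.02 (0.04 in recovered reads) log2 units, or by 0.99 with the longest transcript. Prdx6, which in brain is known mainly from astrocytes and also repairs oxidised phospholipids, had 3784, 3553 and 3798 reads. Of the peroxiredoxins of mitochondria, Prdx3 had 1546, 1542 and 1574 and Prdx5, which is found in several compartments, 1838, 1847 and 1747. Prdx5 lay below Prdx3 per kilobase at −0.31 ± 0.02 (0.06 in recovered reads), but above it at 0.22 without length scaling. Prdx4, of the endoplasmic reticulum, had 300, 302 and 316 reads and the lowest level per kilobase of the family, 7.74 ± 0.19.

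In the thioredoxin system the cytosolic branch exceeded the mitochondrial branch. Txn1, the cytosolic thioredoxin, had 2498, 2470 and 2332 reads and Txn2, its mitochondrial counterpart, 1799, 1766 and 1839. Their ratio per kilobase was 2.43 ± 0.03 (0.08 in recovered reads), falling to 1.39 with the longest transcript and to 0.43 without length scaling. The exons of Txn2 sum to 4208 bases and those of Txn1 to 1051. The reductases differed in the same direction under every length used. Txnrd1 (cytosolic) had 2518, 2415 and 2596 reads and Txnrd2 (mitochondrial) 224, 193 and 197, a ratio of 2.87 ± 0.02 (0.11 in recovered reads) or 7.31-fold, with 3.22 for the longest transcript and 3.56 without length scaling. Replicate 1 was highest for Txnrd2 and lay between the others for Txnrd1, but neither gene differed between libraries above counting error.

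Srxn1, sulfiredoxin, which reactivates overoxidised peroxiredoxins, had 898, 849 and 861 reads. Glrx, the cytosolic glutaredoxin that removes glutathione from proteins, had 287, 242 and 257, and Txn1 exceeded it by 5.56 ± 0.02 (0.12 in recovered reads) log2 units, 47.1-fold, or by 3.17 without length scaling. Other glutaredoxins were also present, with Glrx3 at 233 ± 5.33 CPM, Glrx2 at 59.2 ± 1.73 and Glrx5 at 46.1 ± 3.60. Txnip, the inhibitor of thioredoxin, was at 150 ± 6.40 CPM. All 10 genes of redox repair were detected, with the sestrin genes Sesn2 at 279 ± 4.78 and Sesn3 at 129 ± 5.01.

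For glutathione synthesis, the enzyme of the rate-limiting step was expressed above the enzyme of the last step. Gclc, the catalytic subunit of glutamate-cysteine ligase, had 1292, 1292 and 1316 reads, and Gclm, its modifier subunit, 1215, 1140 and 1224. Their ratio was 0.86 ± 0.02 (0.05 in recovered reads) per kilobase and 0.12 without length scaling. Gss, glutathione synthetase, had 137, 165 and 159 reads and was lowest in replicate 1, a difference not above counting error. Gsr, which returns oxidised glutathione to its reduced form, had 477, 475 and 473. Its coefficient of variation (CV) of 0.687% was the smallest of the 37 genes. The smallest of 37 values can be low by chance, so it does not show that Gsr is steadier than the others. Gsr exceeded Gss by 2.67 ± 0.01 (0.14 in recovered reads) log2 units, or by 1.57 without length scaling.

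Of 14 genes of glutathione supply and turnover 12 were detected. Slc3a2, the heavy chain of the cystine transporter, was at 712 ± 8.69 CPM, and Slc7a11, its light chain xCT, at 106 ± 5.42. Chac1, which breaks glutathione down, was at 139 ± 0.33. Ggt1 and Ggt5, extracellular enzymes of glutathione breakdown, had 26 and 3 reads in all. For NADPH, Idh1 was at 150 ± 3.63 CPM, Idh2 at 41.1 ± 3.0 and Nnt, the mitochondrial transhydrogenase, at 18.1 ± 0.51.

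NRF2 target genes lay at very different levels within the same libraries. Hmox1, the inducible heme oxygenase and a classical NRF2 target, had 1540, 1427 and 1505 reads. Nqo1, a quinone reductase and another classical target, had 39, 24 and 34. The libraries of these genes did not overlap, at 43.6 to 46.8 CPM per kilobase for Hmox1 and 0.83 to 1.34 for Nqo1. Hmox2, the constitutive heme oxygenase that is usually described as the main form in brain, had 736, 757 and 737 reads. It lay below Hmox1 at −1.33 ± 0.02 (0.08 in recovered reads) log2 units, and at −0.99 without length scaling. Exons of Hmox2 overlap those of Cdip1 by 892 bases, so this ratio carries the uncertainty given below for overlapping genes. Nfe2l2, which encodes NRF2, had 758, 764 and 756 reads and Keap1, its repressor, 861, 793 and 794. Keap1 lay below Nfe2l2 at −0.20 ± 0.02 (0.07 in recovered reads) per kilobase, but above it at 0.10 without length scaling.

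All 20 further genes listed as NRF2 partners and targets were detected. The ferritin genes Fth1 (770 ± 39.2 CPM) and Ftl1 (683 ± 49.6), for iron storage, and Sqstm1 (526 ± 24.2), the autophagy receptor that binds KEAP1, were the 3 with the most reads, which depend on gene length as well. Cul3, which with KEAP1 marks NRF2 for degradation, was at 188 ± 0.97, the repressor Bach1 at 54.4 ± 2.48 and Osgin1 at 5.96 ± 0.71. Maff, a small Maf protein, was at 3.53 ± 0.48.

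Promoter sequences of the set were searched for the core of the NRF2 binding site, TGACNNNGC, on both strands, in the RefSeq window from 250 bases before to 50 bases after each start of a gene (GRCm38.p6). Of 37 genes 31 had an entry, and Sod3, Prdx6, Gclc, Gsr, Hmox1 and Gsta4 had none. The letters were found for 8 of 31 genes, or 25.8%, and in 8 of their 41 promoters, or 19.5%. Over all 32851 promoters the share was 12.4%, and over all 27025 genes 13.99%. Each match is printed with 10 bases on either side, 5′ to 3′ on the gene's strand, with the core in capitals, to show how different the centres and flanks are. All but those of Nfe2l2 and Gstm5 are in reverse complement, so that they begin with GC and end with GTCA. The match in Prdx1 also contains an AP-1 site (TGANTCA), whereas the other 7 do not.
Prdx1 (chr4:116685456-116685484, + strand): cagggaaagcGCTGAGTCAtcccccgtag
Txnrd1 (chr10:82859104-82859132, + strand): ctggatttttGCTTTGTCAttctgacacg
Srxn1 (chr2:152105542-152105570, + strand): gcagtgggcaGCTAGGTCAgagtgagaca
Gclm (chr3:122245413-122245441, + strand): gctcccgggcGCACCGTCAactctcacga
Sod1 (chr16:90220696-90220724, + strand): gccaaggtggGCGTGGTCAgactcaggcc
Mgst1 (chr6:138140461-138140489, + strand): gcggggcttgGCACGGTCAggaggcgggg
Gstm5 (chr3:107895802-107895830, + strand): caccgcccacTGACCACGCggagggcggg
Nfe2l2 (chr2:75704885-75704913, − strand): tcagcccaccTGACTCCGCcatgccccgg

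The matches began 240 (Nfe2l2), 134 (Gclm), 133 (Prdx1), 92 (Txnrd1), 56 (Sod1 and Mgst1) and 42 (Gstm5) bases before a RefSeq start, and 28 bases after one in Srxn1. A gene can have several such starts. The one in Txnrd1 lies inside the gene, which begins at chr10:82833951 in GENCODE, and the match in Mgst1 also lies inside the GENCODE gene. The 250 bases upstream of Gclm (chr3:122245307-122245556, + strand) are given whole, with the core in capitals, because Gclm is a classical NRF2 target and the stretch shows the GC-rich setting of its match.
Gclm upstream: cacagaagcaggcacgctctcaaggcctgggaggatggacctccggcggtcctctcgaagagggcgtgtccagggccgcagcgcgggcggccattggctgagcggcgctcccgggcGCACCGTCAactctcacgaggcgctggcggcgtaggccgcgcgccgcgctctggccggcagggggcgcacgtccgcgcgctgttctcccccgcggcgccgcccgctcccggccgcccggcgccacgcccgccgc

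Genes with and without the letters were expressed over overlapping ranges. The 8 with a match had a median of 17.6 CPM per kilobase (10.1 to 59.4) and the 23 without one 22.8 (1.11 to 257). Gstm1, Gpx4 and Txn1, the highest members, and Nqo1, among the lowest, had no match in this window. A match describes letters, not binding, and sites further from the start were not searched.

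Glutathione S-transferases, which couple glutathione to reactive compounds, included the highest member. Gstm1 (chr3:108012255-108017973, − strand, GRCm38), of the cytosolic mu class, had 7004, 6563 and 7753 reads. Gstm5, of the same class, had 1186, 1157 and 1162 and lay below Gstm1 at −2.39 ± 0.07 (0.12 in recovered reads) log2 units, a 5.23-fold difference. Gstp1 (chr19:4035407-4037985, − strand), of the pi class, had 1257, 1054 and 1280 reads. Gsto1, of the omega class, had 1393, 1464 and 1490, and Gsta4, which clears the lipid peroxidation product 4-hydroxynonenal, 374, 440 and 374. Of the microsomal enzymes, Mgst3 had 1509, 1393 and 1532 reads and Mgst1 460, 453 and 473, a ratio of 2.53 ± 0.02 (0.05 in recovered reads), or 1.66 without length scaling.

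Transferases outside the set were mostly low. Of 23 relatives, among them the other glutathione peroxidases, glutaredoxins and transferases, 11 were detected on the deposited scale. In recovered reads the number was 10, because Gsta3 had 13 reads in replicate 3. Gstz1, of the zeta class, was at 35.9 ± 0.99 CPM. Below 1 CPM in every library were Gsto2, Gstm2, Gstp2, Gstt2, Gsta1, Gsta2, Gstt3, Mgst2 and Gstm3, with 2 to 27 reads each in all, beside Gpx2, Gpx5 and Gpx6.

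The libraries were then compared to see which antioxidant genes varied between replicates. A Pearson chi-square test on recovered reads, run over the 15131 genes that averaged at least 10 reads and adjusted by the Benjamini-Hochberg method, placed 3 of 37 members (8.11%) above counting error, against 8.62% of all genes tested. The share is close to the background. Against the dispersion trend of all genes, which allows for the usual spread between these libraries, 0 of 37 passed, against 0.344% of all genes. Without adjustment 2 of 37 (5.41%) had a p under 0.05 against the trend, namely Gstm1 and Gstp1, beside 6.20% of all genes. Among genes with 1000 to 10000 reads, 3 of 20 members and 20.2% of all genes lay above counting error, and the median CV was 3.26% for members and 3.15% for all.

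**Figure D4:**
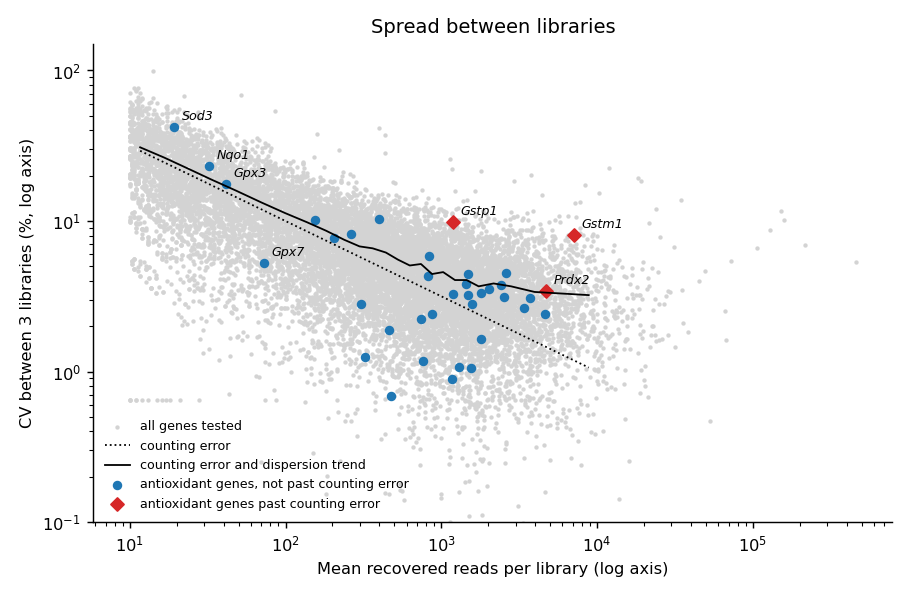
Coefficient of variation (CV, percent, log axis) between 3 libraries against mean recovered reads (log axis) for all 15131 genes tested (grey) and the 37 antioxidant genes (blue, or red diamonds where above counting error); lines show counting error alone and with the dispersion trend. Gstm1 and Gstp1 lie above the upper line, at a CV of 8.10% and 9.82%, and Prdx2 lies on it. The line marks the usual spread and is not a threshold. Some genes in blue lie above it too, such as Gsta4 (10.3%) and Sod3 (42.1%).

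Gstm1 was lowest in replicate 2 and highest in replicate 3, a 1.17-fold range (adjusted p = 1.92e-18, chi-square test over all genes). Gstp1 was also lowest in replicate 2, with a CV of 9.82% (adjusted p = 0.00038), and replicates 1 and 3 lay close together. Prdx2 was highest in replicate 1 and lowest in replicate 3, with a 1.07-fold range (adjusted p = 0.045). Gstm1 passed in each leave-one-out fit (adjusted p from 3.12e-18 to 0.0462). Gstp1 no longer passed without replicate 2 (adjusted p = 0.904). Prdx2 no longer passed without replicate 1 (0.448) or without replicate 3 (0.347). Prdx2 also missed the threshold with no minimum on reads (0.0751) and with GC content and length bins (0.12). Sod1 missed it at an adjusted p of 0.0552, but passed with a minimum of 50 reads (0.046), with TMM scaling (0.0492) and with library totals without mitochondrially encoded genes (0.038).

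Other measures were lowest or highest in replicate 2 as well, as were 37.0% and 34.3% of all genes tested. The summed oligodendrocyte precursor markers were lowest there (102%, 95.8% and 102% of their mean in replicates 1, 2 and 3). That difference came from Olig1 (165, 148 and 165 CPM), while Pdgfra was highest in replicate 2 (28.2, 29.0 and 28.1) and Olig2 nearly level (67.1, 66.9 and 67.1). In addition, mitochondrially encoded genes took the largest share there (7.13%, 8.25% and 7.61% of reads). Neuronal markers summed to 4867, 4791 and 4872 CPM and astrocyte markers to 1900, 1923 and 1898. The part of these in the differences of Gstm1 and Gstp1 was not tested. Of the 62 pathway genes tested outside the set, 5 lay above counting error, against 8.62% of all genes tested. Above the trend lay 0, against 0.344% of all genes. Fth1 and Ftl1 were lowest in replicate 2, and Slc7a11 was highest there. Sqstm1 was at 554, 510 and 514 CPM in replicates 1, 2 and 3, and Gsta3 had 42, 27 and 13 reads.

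**Figure D5:**
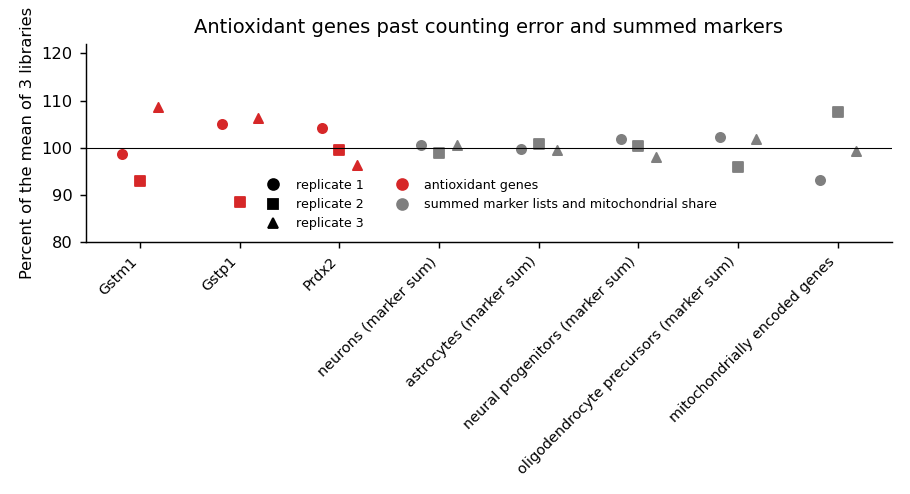
Level in each of 3 libraries as percent of the mean of the libraries, for Gstm1, Gstp1 and Prdx2 (red, CPM) and for summed marker lists and mitochondrially encoded genes (grey). Replicate 2 lies at 92.9% for Gstm1 and 88.6% for Gstp1, and at 107.7% for mitochondrially encoded genes.

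Several values carry an uncertainty from near-identical or overlapping genes. A copy with at least 95% identity over 200 bases or more was annotated for 7 members, Gpx4, Gstm1, Gstp1, Prdx1, Prdx2, Sod1 and Txn1. The copies with values had few reads. The most were 133 in all, for Gstm2-ps1, a copy of Gstm1. Gstp2, a copy of Gstp1, had 18. Those of Gpx4 and the Gstp1 pseudogene were not analysed here. How reads that match a gene and its copy were counted is not stated, so the few reads of a copy do not bound this uncertainty. Exons of 8 members overlap another gene, in most cases on the opposite strand, and the labels do not state whether counting used strand. The longest overlap is that of Hmox2 with Cdip1, 892 bases, where Cdip1 had 8855 reads in all. Keap1 shares 510 bases with the antisense gene Gm16754, which had 30 reads in all. Prdx5 shares 409 bases with Trmt112 and Gss 395 with Acss2.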

How the data were processed

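RNA of 3 libraries of 1 group was sequenced on the DNBSEQ platform. What the authors deposited is a log2 value for every gene row in each library. Per the submitters' processing notes, FastQC, HISAT2, featureCounts and DESeq2 were used with GRCm38. Their versions and settings are not stated there. The log2 values have the form of a regularized log, and reads were recovered by inverting the shrunken negative binomial fit, which took 6 parameters. Among 67797 values, 99.9% lay no more than 0.1 from an integer (20% by chance), and 100% of genes were refitted to within 0.001. For the 71 genes with a mean log2 of 14 or more, the share of values this close to an integer was 93.0%. Recovery and tests were tested on simulated data. The refit and the simulated recovery used the same model as the inversion, so they cannot test that model.

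CPM is a value per 1000000. Detection, shares and pair ratios (0.5 CPM added) use the deposited values; levels use recovered reads. Spread between libraries was tested by chi-square on 2 degrees of freedom with median-of-ratios size factors; the dispersion trend used 25 abundance bins. Coordinates, exon lengths and GC content come from GENCODE M21 (GRCm38), copies from BLAST+ 2.17.0, and promoters from RefSeq; Python 3.11.15 and scipy 1.17.1 were used.

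The members, lists, pairs and tests were chosen with earlier results of these data known. Named genes were every member, with reads in each library for both genes of each pair, the 3 highest and lowest and those varying between libraries; of other lists the 3 highest and those below 1 CPM in every library. Marker lists are given as sums. Ccs, Cul3, Bach1, Osgin1, Maff and Gstz1 were chosen after their values were seen. Libraries differed by more than sampling noise (chi-square per gene 2.27 to 3.86 between libraries). They were counted separately, although such spread may be technical and does not show that they were separate cultures.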

Additional observations from a re-analysis of the deposited data

How the results depend on the processing

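Across 232 values recomputed under alternatives, 212 kept their direction or stayed within the spread or count limit set for them, 16 moved and 4 reversed. For ratios whose sign was shared by all libraries, leaving a library out could not change the sign. The reversals were Gpx1 over Cat with 5 CPM added (0.0127) and with the longest transcript (0.38), and Prdx5 over Prdx3 (0.22) and Keap1 over Nfe2l2 (0.10) without length scaling; those without length scaling or with another length follow from exon lengths. The share of summed expression went from 0.298% to 0.323% without mitochondrially encoded genes in the sum, which shrinks the denominator, and the shares of the 7 role groups moved likewise. The median percentile went from 77.8 to 68.6 without length scaling and to 83.4 among all protein-coding genes with a read. Members above counting error numbered 3, and 2 to 4 under the alternatives (2 in each leave-one-out fit), and 0 lay above the trend under every alternative run. Over all genes, the count above counting error went from 1304 to 757 with GC content and length bins, 329 when replicate 2 was left out and 758 when replicate 3 was. The count above the trend went from 52 to 29 without replicate 1, 12 without replicate 2, 36 with GC content and length bins and 35 without replicate 3. It was 19 with the dispersion implied by the deposited values, an alternative chosen after seeing the data. The causes of these changes were not tested. No paired analysis was possible because there is only 1 group. Depth limits Sod3, Nqo1, Gpx3 and Gpx7, which had under 100 reads per library and a median CV of 20.3%.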
